A study of Mus musculus with 9 samples.

Results

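Osteopontin (Spp1) and 7 further genes that mark phagocytes at sites of tissue injury, Gpnmb, Lgals3, Cst7, Clec7a, Cd44, Fabp5 and Ch25h, were followed through 9 libraries of mouse cerebral cortex. The 8 genes were taken by name from a table of 37893 genes, each name was found in 1 row, and all 8 were among the 17247 genes expressed highly enough to test (at least 0.5 FPKM, fragments relative to gene length and to all mapped fragments, in at least 3 libraries). Spp1, Lgals3, Cd44 and Fabp5 reached that minimum in 9 libraries. Gpnmb, Cst7 and Ch25h reached it in 6 and Clec7a in 5, all of them from injured cortex, so that these 4 genes entered the test only through the groups in which they were high.

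The mice formed 3 groups of 3. The sham_WT mice were wild type and had sham surgery. The IR_WT mice were wild type and had transient occlusion of the middle cerebral artery, with 60 min of ischemia and 1 day of reperfusion, after which the cortex around the infarct was taken. The IR_Matn3_ko mice are labelled as knockouts of Matn3, the gene of the cartilage and matrix protein matrilin-3, and had the same occlusion, reperfusion and dissection. The tissue thus differed too: the sham samples are labelled as cortex and the others as the border of an infarct. Knockout mice with sham surgery were not analysed here, and so a genotype difference present before injury and one that arises after it cannot be told apart. The sources used here do not give strain, sex or age, nor whether the deletion is restricted to a cell type. The stated question is how matrilin-3 acts against the glial scar, with IR_WT set against each of the other groups.

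After a stroke, resident microglia and macrophages that enter from the blood clear dead cells and myelin. As they load with debris and lipid they switch on a shared program of secreted matrix proteins, lectins, lysosomal proteins and lipid enzymes, which is also seen in demyelination and neurodegeneration. Osteopontin is a secreted, integrin-binding phosphoprotein, first known from bone, and CD44 is a hyaluronan receptor that also binds it. Galectin-3 (Lgals3) and Dectin-1 (Clec7a) bind sugars, GPNMB is a glycoprotein of lysosomes and the cell surface, cystatin F (Cst7) inhibits lysosomal cysteine proteases, FABP5 carries fatty acids, and Ch25h makes 25-hydroxycholesterol.

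In wild-type mice, 7 of the 8 genes were higher after injury by the fitted difference of IR_WT from sham_WT, and for 6 of them the 2 groups did not overlap, beside 13.1% of all genes tested that were higher without overlap. Spp1 and Ch25h differed most and Cd44 and Fabp5 least. The members were chosen by name, with their levels in IR_WT and sham_WT already known, so these values are a description. In the knockout, all 8 lay above IR_WT by the fitted difference, though for Fabp5 its sign turned with the processing, and 6 did so without overlap, beside 9.42% of all genes tested. Among the 6 were Spp1, Lgals3, Cd44 and Ch25h at 2.62-fold, 2.16-fold, 2.54-fold and 2.03-fold. None of these knockout differences passed edgeR's quasi-likelihood test after adjustment over all genes tested. The knockout counts are a description too, since the members were chosen with earlier results of these data known.

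The libraries divide in a way that touches every comparison. CPM are counts relative to the library total, without the TMM scaling factors unless stated. Transcripts of the small intestine summed to 8.07 to 10.4 CPM in a first set of libraries, the 3 of sham_WT and IR_WT replicate 1. In the second set, the 3 knockout libraries and IR_WT replicates 2 and 3, the sum was 111 to 530.0 CPM. B cell transcripts ran the other way, with sums of 209 to 309 CPM (first set) and 10.9 to 24.5 CPM (second set). Results are given also with a term for the set in the model where it changes the call of a member, and for some of the gene lists. In that model IR_WT against sham_WT comes from IR_WT replicate 1 alone and IR_Matn3_ko against IR_WT from IR_WT replicates 2 and 3. Total counts were 53400376 to 68370527 per library. Matn3 itself was near zero throughout (0 to 48 counts), and 17 counts in the library labelled IR_Matn3_ko 2 lay within the range of IR_WT, so the gene could not check the labels.

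**Figure D1:**
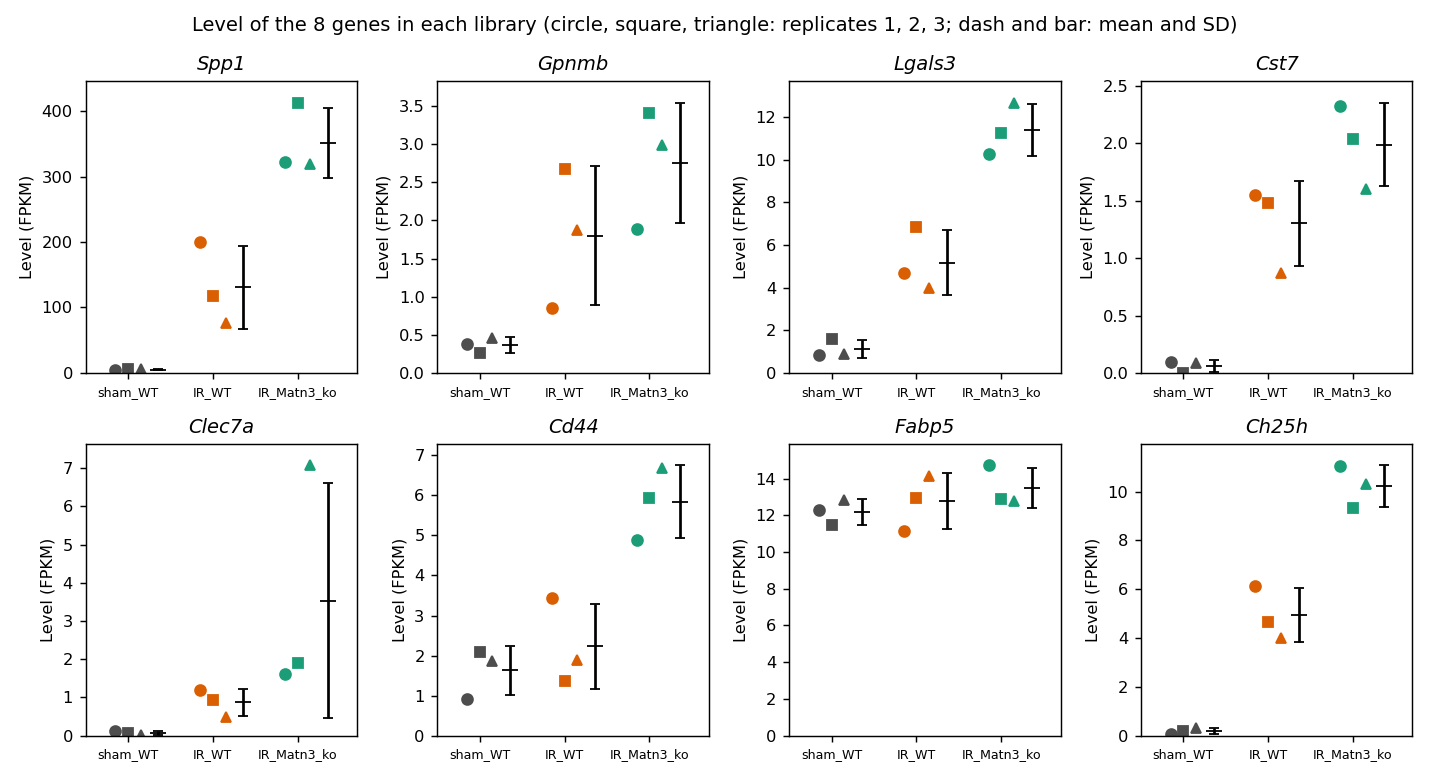
Level in FPKM (vertical axis, a separate linear scale from 0 for each gene) of the 8 genes in each of the 9 libraries, by group. Symbols are replicates 1 to 3, and the dash and bar are the mean and SD of 3 libraries. For Spp1, Lgals3, Cst7, Clec7a, Cd44 and Ch25h every IR_Matn3_ko library lies above every IR_WT library, Clec7a has 1 IR_Matn3_ko library at 7.08 FPKM, and the Fabp5 groups overlap.

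Spp1 (chromosome 5, 104435118 to 104441050, plus strand, GRCm38, a protein-coding gene) was the most abundant member in injured cortex. Its level was 3.96, 5.51 and 6.20 FPKM in sham_WT replicates 1 to 3. In IR_WT it was 200.2, 117 and 75.6 FPKM. In the knockout it was 322, 413 and 319.9 FPKM. The groups did not overlap, and the lowest knockout library lay above the highest IR_WT library. In the same order of groups the means were 5.22 ± 1.15, 131 ± 63.4 and 352 ± 53.1 FPKM (SD, n = 3).

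Ranked by FPKM among all genes of the table, Spp1 stood at 8347, 6846 and 6255 in the sham_WT libraries. It stood at 75, 190 and 359 in IR_WT and at 48, 36 and 45 in IR_Matn3_ko, among the most abundant messages of the tissue. Of the summed FPKM of the 8 genes Spp1 made up 21.1% to 27.3% in sham_WT, 73.5% to 87.3% in IR_WT and 85.5% to 89.8% in IR_Matn3_ko.

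The fitted log2 fold change of Spp1 was 4.55 ± 0.35 (SE) for IR_WT against sham_WT, or 23.4-fold. For IR_Matn3_ko against IR_WT it was 1.39 ± 0.30, or 2.62-fold with a 95% interval of 1.64 to 4.17, and the adjusted p of edgeR's quasi-likelihood test was 0.123. The 3 IR_WT libraries spread 2.60-fold among themselves, as much as that difference. IR_WT replicate 1, the only IR_WT library of the first set, was the highest of them. Spp1 passed when the library set entered the model, at a knockout difference of 1.85 ± 0.21 (edgeR adjusted p = 0.0209), and within the second set alone, at 1.85 ± 0.20 (edgeR adjusted p = 0.0497). Its IR_WT difference from sham_WT was then 5.18 ± 0.24.

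The window around the first of the RefSeq start sites of Spp1, from 250 bases before to 50 bases after it (GRCm38.p6, chr5:104434861-104435160, plus strand), is shown because Spp1 had the highest level of the 8 genes in injured cortex. In capitals is a match to the letters GAGGAAGT, a form of the site of PU.1, the transcription factor of myeloid cells, which starts 113 bases before the start site.

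Spp1: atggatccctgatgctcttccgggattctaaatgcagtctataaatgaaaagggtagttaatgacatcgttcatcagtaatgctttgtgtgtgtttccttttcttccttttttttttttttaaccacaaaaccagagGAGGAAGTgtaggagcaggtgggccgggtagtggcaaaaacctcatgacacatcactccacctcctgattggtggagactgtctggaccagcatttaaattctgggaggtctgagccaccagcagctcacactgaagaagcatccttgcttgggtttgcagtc

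The letters GAGGAAGT were found on either strand in 3.2% of 32851 RefSeq windows of the same length. A second RefSeq window of Spp1 held none of the 5 motifs searched. These were TGANTCA for AP-1, TGACGTCA for the cyclic AMP response element (CRE), GAGGAAGT for PU.1, CACGTG for the E-box of MiT/TFE factors and TCATGTG for the M-box. The windows of Lgals3, Cd44 and Clec7a held none either, which says only that these letters are not in these windows. RefSeq windows were matched for 7 of the 8 genes, all but Fabp5.

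Gm42793, a predicted gene that lies inside Spp1 on the same strand, had 1, 1 and 1 counts in sham_WT, 24, 30 and 25 in IR_WT and 53, 145 and 85 in IR_Matn3_ko. Reads of the 2 genes may have been divided between them in counting. Against the 385 to 50412 counts of Spp1 itself its share was small in every library.

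Cd44 (chromosome 2, 102811141 to 102901665, minus strand, protein coding) encodes the receptor for hyaluronan and osteopontin. Its level was 0.924, 2.09 and 1.86 FPKM in sham_WT. It was 3.43, 1.38 and 1.898 FPKM in IR_WT and 4.88, 5.94 and 6.70 FPKM in the knockout. Sham_WT and IR_WT overlapped, and all 3 knockout libraries lay above all 6 others. Group means were 1.63 ± 0.620, 2.23 ± 1.07 and 5.84 ± 0.911 FPKM (SD, n = 3).

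For IR_WT against sham_WT the log2 fold change of Cd44 was 0.37 ± 0.36 (SE), a 1.29-fold difference with a 95% interval of 0.741 to 2.24. It was -0.09 when IR_WT replicate 1 was left out, and 0.99 when the library set entered the model, so that this library alone stood for IR_WT. Between the knockout and IR_WT it was 1.34 ± 0.36, or 2.54-fold (95% interval 1.45 to 4.43; edgeR adjusted p = 0.166), and 1.80 ± 0.32 in the model that holds the library set (edgeR adjusted p = 0.0600). B cells carry CD44 as well, and the B cell markers summed to 209 CPM in IR_WT replicate 1 and to 24.5 and 13.7 CPM in replicates 2 and 3. Their part in the Cd44 values was not tested.

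The other genes that act with osteopontin and CD44 were taken as lists. Of 8 tested integrin subunits that receive osteopontin, 1 rose in IR_WT against sham_WT, Itga5, the alpha chain of the fibronectin receptor. Itga5 was at 0.671, 0.920 and 0.769 FPKM in sham_WT, 2.45, 2.09 and 2.34 FPKM in IR_WT and 4.98, 4.05 and 6.17 FPKM in the knockout. The 3 groups were apart, with log2 fold changes of 1.44 after injury (edgeR adjusted p = 0.00278) and 1.11 between knockout and IR_WT (edgeR adjusted p = 0.098). The list's median log2 fold change was -0.06 and 0.04 in these comparisons, beside 0.00 over all genes tested in both.

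Of 4 tested proteases that cleave osteopontin, 2 rose in IR_WT, the stromelysin Mmp3 and the macrophage elastase Mmp12. Mmp3 stood at 0, 0 and 0.0295 FPKM in sham_WT, 3.88, 1.11 and 1.83 FPKM in IR_WT and 5.86, 5.89 and 14.0 FPKM in the knockout. Mmp12 stood at 0.0286, 0 and 0 FPKM in sham_WT, 0.820, 0.863 and 0.325 FPKM in IR_WT and 1.67, 1.49 and 1.66 FPKM in the knockout. Both had reads in 1 sham_WT library, so no fold is given against that group. Between the knockout and IR_WT they did not overlap and did not pass (edgeR adjusted p = 0.203 for Mmp3 and 0.412 for Mmp12). Mmp7, a protease of intestinal crypts among others, was listed at 0 in the 3 sham_WT libraries and IR_WT replicate 1, as the small intestine markers were low there.

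Among 8 tested genes that make, degrade or tether hyaluronan, none passed in IR_WT against sham_WT, with a median log2 fold change of 0.16. None passed in the knockout against IR_WT either, with a median of 0.20. Moesin (Msn), which links CD44 to actin, stood at 6.40, 8.50 and 8.18 FPKM in sham_WT, 19.5, 10.97 and 11.2 FPKM in IR_WT and 23.2, 23.9 and 28.7 FPKM in the knockout. Like Cd44 it was highest in replicate 1 within IR_WT and higher than in any other library in the 3 knockout libraries. Its knockout difference from IR_WT was 0.82 on the log2 scale (edgeR adjusted p = 0.164). With the library set in the model Msn was the 1 gene of the list called in each comparison, at 1.26 after injury (edgeR adjusted p = 0.00432) and 1.16 between knockout and IR_WT (edgeR adjusted p = 0.0209). Ezrin (Ezr), its relative and the most abundant gene of the list, had a knockout difference of -0.02.

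Lgals3 (chromosome 14, 47367751 to 47386160, plus strand, protein coding) encodes galectin-3, a galactoside-binding lectin found in the cytoplasm, at damaged lysosomes and outside cells. Its level was 0.853, 1.61 and 0.890 FPKM in sham_WT. It was 4.68, 6.86 and 3.96 FPKM in IR_WT and 10.2, 11.3 and 12.7 FPKM in the knockout. The 3 groups were fully apart, with means of 1.12 ± 0.424, 5.17 ± 1.51 and 11.4 ± 1.22 FPKM (SD, n = 3). IR_WT exceeded sham_WT by 2.11 ± 0.27 (SE) on the log2 scale, or 4.30-fold. The knockout exceeded IR_WT by 1.11 ± 0.25, or 2.16-fold (95% interval 1.46 to 3.20; edgeR adjusted p = 0.126), and by 1.06 when the library set entered the model.

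Of 7 other tested galectins and the galectin-3-binding protein, 1 rose in IR_WT against sham_WT, Lgals3bp, the secreted binding partner of galectin-3. It went from 3.61 to 4.38 FPKM across the sham_WT libraries to 9.60 to 11.2 FPKM in IR_WT and 12.6 to 15.9 FPKM in the knockout. These are log2 fold changes of 1.29 after injury (edgeR adjusted p = 0.000394) and 0.47 between knockout and IR_WT (edgeR adjusted p = 0.132). Lgals2 and Lgals4, galectins of the gut, followed the small intestine markers: Lgals4 was at 0.861 to 1.12 FPKM in the sham_WT libraries and IR_WT replicate 1, and at 3.24 to 9.81 FPKM in the 5 other libraries. After injury the median of the list was 1.29, and 0.51 once the library set was in the model.

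Clec7a (chromosome 6, 129461591 to 129472779, minus strand) encodes Dectin-1, the myeloid receptor for beta-glucans. The gene is typed as a polymorphic pseudogene in GENCODE M21, with protein coding among the transcript types the authors list. Its level was 0.130, 0.0676 and 0.0245 FPKM in sham_WT. It was 1.19, 0.933 and 0.493 FPKM in IR_WT and 1.61, 1.898 and 7.08 FPKM in the knockout. The groups were apart, but knockout replicate 3 stood far above its own group. In counts, sham_WT had 21, 12 and 4, IR_WT 202, 181 and 92, and the knockout 288, 372 and 1271. The means were 0.0742 ± 0.0533, 0.873 ± 0.354 and 3.53 ± 3.08 FPKM (SD, n = 3), so that in the knockout the SD was nearly as large as the mean.

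The log2 fold change of Clec7a was 3.39 ± 0.73 (SE; 10.5-fold) for IR_WT against sham_WT. Between the knockout and IR_WT it was 1.99 ± 0.63, or 3.96-fold (95% interval 1.498 to 10.5; edgeR adjusted p = 0.224). Without knockout replicate 3 it was 0.98 (edgeR adjusted p = 0.501). On the log2 scale that library exceeded the mean of the other 2 knockout libraries by 1.91 for Clec7a, rank 11 of 17247 genes. The related C-type lectin receptors Clec4n (Dectin-2) and Clec4d, compared after their values had been seen, exceeded it by 2.85 (rank 2) and 1.78 (rank 16). Of the other tested receptors of their list, Clec5a exceeded it by 0.85, while Clec4a1 and Clec4a3 went the other way, at -0.23 and -0.78. The same difference was -0.18 for Spp1 and 0.24 for Lgals3, and at most 0.32 (Cd44) among the other members.

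Of 5 tested myeloid C-type lectin receptors none passed in IR_WT against sham_WT or in the knockout against IR_WT, with median log2 fold changes of 1.72 and 1.14. Clec4n stood at 0.107, 0.111 and 0 FPKM in sham_WT, 0.462, 0.321 and 0.396 FPKM in IR_WT and 0.580, 0.933 and 7.40 FPKM in the knockout. Clec4d stood at 1.66, 1.09 and 5.34 FPKM in the knockout and at 0.178 to 0.743 FPKM in IR_WT. Both follow Clec7a in having 1 knockout library far above the others. Of 8 tested genes that signal downstream of Dectin-1, 1 rose in IR_WT, the exchange factor Vav1 at a log2 fold change of 0.83 (edgeR adjusted p = 0.0419; 0.0616 with the library set in the model), and none passed in the knockout against IR_WT (median 0.13).

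Gpnmb (chromosome 6, 49036546 to 49070929, plus strand, protein coding) encodes a transmembrane glycoprotein of phagocytes that handle lipid. Its level was 0.386, 0.255 and 0.460 FPKM in sham_WT. It was 0.851, 2.67 and 1.87 FPKM in IR_WT and 1.88, 3.41 and 2.98 FPKM in the knockout. IR_WT lay above sham_WT without overlap, while IR_WT and the knockout overlapped. The means were 0.367 ± 0.104, 1.80 ± 0.911 and 2.76 ± 0.786 FPKM (SD, n = 3).

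Within IR_WT, replicate 1 was the lowest library for Gpnmb and Fabp5 and the highest for Spp1, Cst7, Clec7a, Cd44 and Ch25h. Replicate 2 was the highest for Gpnmb and Lgals3. Over all libraries IR_WT exceeded sham_WT by 2.18 ± 0.39 (SE) on the log2 scale, or 4.52-fold, and IR_WT replicate 1 alone, in the model that holds the library set, by 1.12. The knockout stood above IR_WT by 0.59 ± 0.37, or 1.503-fold (95% interval 0.848 to 2.66; edgeR adjusted p = 0.540), and in the model that holds the library set by 0.26. MITF and its relatives TFEB, TFE3 and TFEC bind E-box letters and are known to drive Gpnmb. Of 3 of these genes tested none passed in either comparison, with median log2 fold changes of 0.28 and 0.06.

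Cst7 (chromosome 2, 150570415 to 150578944, plus strand, protein coding) encodes cystatin F, an inhibitor of cathepsins C, L and others inside leukocyte lysosomes. It was rare: its counts were 6, 0 and 6 in sham_WT, 98, 108 and 61 in IR_WT and 154, 150 and 108 in the knockout. In FPKM these were 0.0916, 0 and 0.0832, then 1.55, 1.48 and 0.873, then 2.33, 2.04 and 1.60. The 0 of sham_WT replicate 2 allows up to 0.0527 CPM, for counting error only. The groups were apart, though the lowest knockout library lay only just above the highest IR_WT library.

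The log2 fold change of Cst7 was 4.15 ± 0.63 (SE; 17.8-fold) for IR_WT against sham_WT, a size that rests on the few sham_WT counts given above. Between the knockout and IR_WT it was 0.58 ± 0.48, or 1.496-fold, with a 95% interval of 0.708 to 3.16 that includes no difference (edgeR adjusted p = 0.658).

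Of 10 tested cathepsins, legumain and other cystatins, 5 rose in IR_WT against sham_WT and 0 fell (median log2 fold change 0.30). With the library set in the model 4 were called, without Ctsb. Cathepsin C (Ctsc), which activates granule serine proteases, stood at 1.42, 1.78 and 1.53 FPKM in sham_WT, 5.36, 4.94 and 5.07 FPKM in IR_WT and 7.94, 9.40 and 8.05 FPKM in the knockout. Ctsc rose by 1.60 on the log2 scale after injury (edgeR adjusted p = 0.000118) and stood 0.69 higher in the knockout than in IR_WT (edgeR adjusted p = 0.0752, a value that Ctsc shares with other genes as the smallest of all). Ctsl and Ctsz each rose by 0.92 in IR_WT (edgeR adjusted p = 0.00537 and 0.00288). In the knockout against IR_WT none of the list passed, and Ctsl alone did with the library set in the model (edgeR adjusted p = 0.0495). As reported, 7 of 10 were higher at an unadjusted p under 0.05, and the median was 0.26.

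The windows of Cst7 (GRCm38.p6, chr2:150570165-150570464, plus strand) and Gpnmb (chr6:49036268-49036567, plus strand) are shown together because each holds a match to the AP-1 letters TGANTCA near the start site. The match begins 6 bases before the start for Cst7 and reaches the start site, lies after the start for Gpnmb, and is in capitals.

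Cst7: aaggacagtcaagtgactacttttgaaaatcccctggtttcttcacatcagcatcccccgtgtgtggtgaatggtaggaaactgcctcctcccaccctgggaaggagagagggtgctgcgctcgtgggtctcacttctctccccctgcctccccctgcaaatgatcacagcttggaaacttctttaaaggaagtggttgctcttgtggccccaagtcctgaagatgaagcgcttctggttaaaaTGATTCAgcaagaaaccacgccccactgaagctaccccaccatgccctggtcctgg
Gpnmb: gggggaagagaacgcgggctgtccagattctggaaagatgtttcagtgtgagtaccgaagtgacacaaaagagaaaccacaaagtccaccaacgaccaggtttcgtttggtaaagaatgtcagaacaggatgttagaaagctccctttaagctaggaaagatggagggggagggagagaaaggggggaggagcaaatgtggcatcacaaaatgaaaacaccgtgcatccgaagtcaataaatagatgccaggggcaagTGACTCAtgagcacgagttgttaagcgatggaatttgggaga

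The same letters were found in 7.81% of all windows, so a match in 2 of 9 windows of the 8 genes is given as a description only.

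Ch25h (chromosome 19, 34473778 to 34475164, minus strand, protein coding, with 1 exon) encodes cholesterol 25-hydroxylase, whose product is an oxysterol that activates liver X receptors and restrains sterol synthesis. Its level was 0.0865, 0.172 and 0.302 FPKM in sham_WT. It was 6.15, 4.66 and 3.98 FPKM in IR_WT and 11.04, 9.33 and 10.3 FPKM in the knockout. The groups were apart, and within each injured group the libraries spread little, at 1.52-fold in IR_WT and 1.22-fold in the knockout. The means were 0.187 ± 0.109, 4.93 ± 1.11 and 10.2 ± 0.857 FPKM (SD, n = 3).

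The log2 fold change of Ch25h was 4.58 ± 0.35 (SE; 23.9-fold) for IR_WT against sham_WT. Between the knockout and IR_WT it was 1.02 ± 0.28, or 2.03-fold (95% interval 1.31 to 3.13; edgeR adjusted p = 0.178). That difference was 1.22 once the library set was in the model. Gm26902, a predicted gene on the opposite strand that overlaps Ch25h, had 44 to 69 counts in sham_WT, 89 to 112 in IR_WT and 117 to 166 in the knockout. The sources used here do not say whether the authors' counts use the strand, and without it reads of the 2 genes cannot be told apart. Ch25h itself had 8, 15 and 26 counts in sham_WT and 389 to 1028 in the injured libraries.

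The window of Ch25h (GRCm38.p6, chr19:34475099-34475398, minus strand) is shown because it holds, in capitals, the full CRE letters TGACGTCA 61 bases before the start site, which 1.79% of all windows hold.

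Ch25h: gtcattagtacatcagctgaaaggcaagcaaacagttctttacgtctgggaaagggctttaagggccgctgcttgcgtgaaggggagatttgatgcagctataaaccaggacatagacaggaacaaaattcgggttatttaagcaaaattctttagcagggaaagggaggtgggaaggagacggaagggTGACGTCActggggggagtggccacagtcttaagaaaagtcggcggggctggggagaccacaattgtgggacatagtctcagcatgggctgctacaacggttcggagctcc

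Of 12 tested genes that respond to, oxidise or synthesise sterols beside 25-hydroxycholesterol, 2 rose in IR_WT against sham_WT and 0 fell (median log2 fold change 0.02). These were the liver X receptor Nr1h3 at 0.89 (edgeR adjusted p = 0.0456) and Hsd3b7, an enzyme of oxysterol breakdown and bile acid synthesis, at 0.74 (edgeR adjusted p = 0.0375). Neither was called with the library set in the model (edgeR adjusted p = 0.200 and 0.229). In the knockout against IR_WT none of the 12 passed even at an unadjusted p under 0.05, and the median was -0.01.

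Fabp5 (chromosome 3, 10012548 to 10016607, plus strand, protein coding) encodes a fatty acid binding protein of keratinocytes, fat cells, neurons and macrophages. Its level was 12.3, 11.4 and 12.8 FPKM in sham_WT. It was 11.1, 12.96 and 14.2 FPKM in IR_WT and 14.7, 12.9 and 12.8 FPKM in the knockout. The 3 groups overlapped, and the level in sham cortex was the highest of the 8 genes there. The means were 12.2 ± 0.703, 12.8 ± 1.52 and 13.5 ± 1.09 FPKM (SD, n = 3).

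The fold of Fabp5 was 0.981 for IR_WT against sham_WT (95% interval 0.828 to 1.16). It was 1.03 for the knockout against IR_WT (95% interval 0.871 to 1.22; edgeR adjusted p = 0.904). The sign of so small a value turned with the scaling and with single libraries left out. Differences over 1.22-fold upwards thus lie outside both intervals. Keratinocyte markers, of which Krt5 and Krt14 were at 0 in the second library set, had sums of 15.4 to 21.8 CPM there and of 52.5 to 112 CPM in the first set. Of 4 other fatty acid binding proteins tested none passed in either comparison. Fabp2, of the intestine, was listed at 0 in the sham_WT libraries and IR_WT replicate 1 and at 18.2 to 51.9 FPKM in the others.

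**Figure D2:**
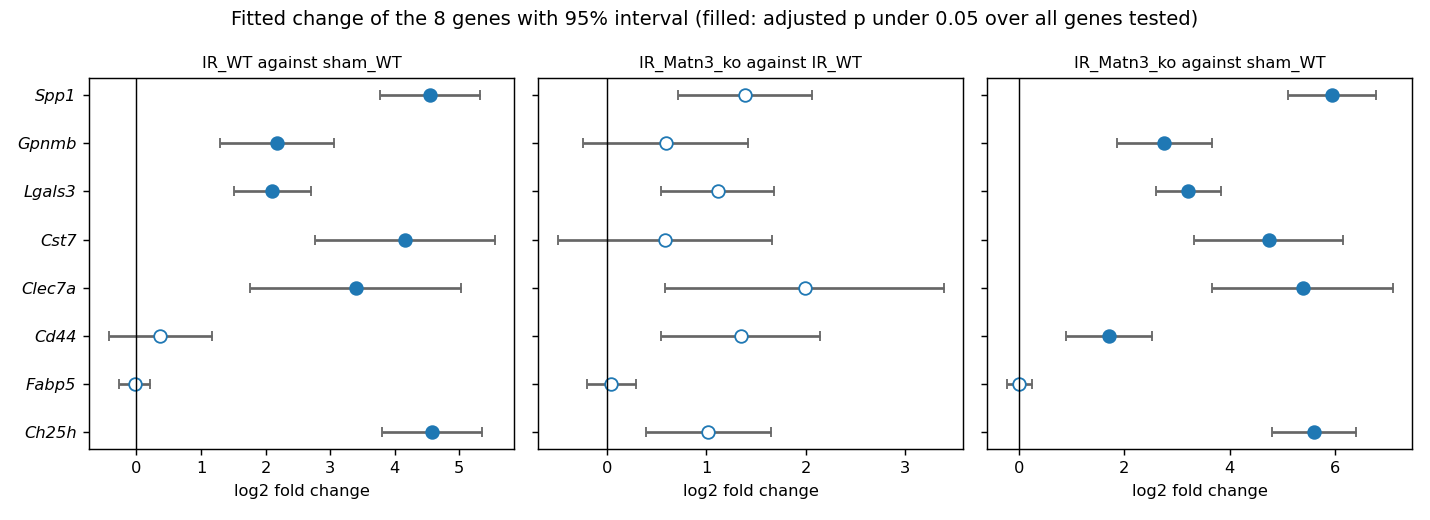
Fitted log2 fold change (horizontal axis) of each of the 8 genes in the 3 comparisons, with the 95% interval as a bar and a filled symbol for an adjusted p under 0.05 over all genes tested. Scales differ between the panels. In IR_Matn3_ko against IR_WT all 8 points lie above 0, from 0.04 for Fabp5 to 1.99 for Clec7a, and none is filled.

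Counted over the set, 6 of 8 genes were past an adjusted p of 0.05 and higher in IR_WT than in sham_WT, where 2.54% of all genes tested were called higher and 4.06% in either direction. Cd44 and Fabp5 were the exceptions. Without overlap between the groups, 6 of 8 were higher in IR_WT, beside 13.1% of all genes. When the library set entered the model 5 of 8 were called, without Gpnmb, beside 1.7% of all genes called higher and 2.36% in either direction. The median log2 fold change of the 8 was 2.79, and that of all genes 0.00. Nothing is read from these counts, since the members were chosen with this comparison known. In bulk tissue a change in the number of cells of a type and a change in the RNA of each cell cannot be told apart.

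In IR_Matn3_ko against IR_WT, 0 of 8 members and 0 of 17247 genes passed edgeR's quasi-likelihood test (0% called), and 2302 genes (13.3%) had an unadjusted p under 0.05, of which 1137 were higher (6.59%). Of the 8 members 5 had an unadjusted p under 0.05, all of them higher in the knockout: Spp1, Lgals3, Clec7a, Cd44 and Ch25h. Those 5 were also the members at a log2 fold change of at least 1, a size reached upwards by 1.23% of all genes. In addition, 6 members lay higher in the knockout without overlap, beside 9.42% of all genes. Nothing is read from these counts either, since the members were chosen with earlier results of these data known. DESeq2 called 669 of its 17196 genes (3.89%), 374 of them higher (2.17%), and 4 members, all higher: Spp1 (adjusted p = 0.0106), Lgals3 (0.00132), Cd44 (0.0448) and Ch25h (0.00178). Under edgeR Spp1 was the only member called in 3 further fits. These were the fit that holds the library set (34 genes, 0.197%, with 0.168% higher), the second set alone (14 genes, 0.0812%, all higher) and the fit without IR_WT replicate 1 (37 genes, 0.215%, with 0.174% higher). All of them set the knockout against IR_WT replicates 2 and 3, without the IR_WT library highest for Spp1. They are therefore not separate evidence. Limma on log2(FPKM + 1) called 38 genes (0.22%, with 0.203% higher) and of the members Ch25h alone, at 0.93 (adjusted p = 0.0369).

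**Figure D3:**
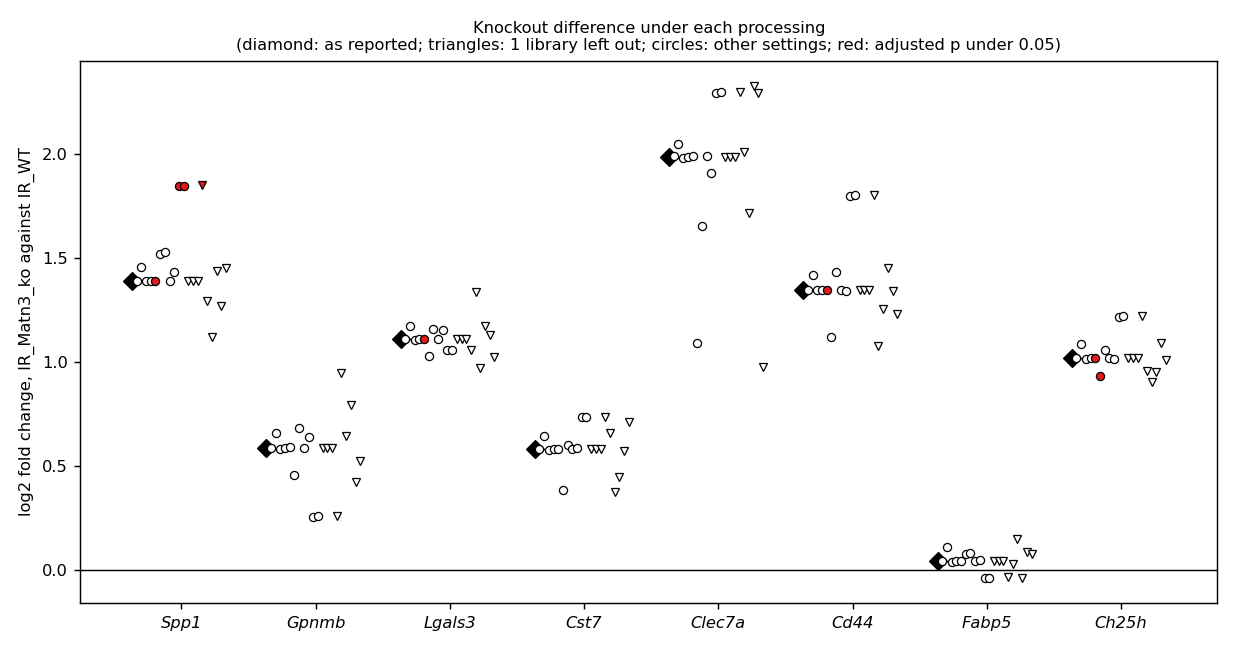
Log2 fold change of each gene for IR_Matn3_ko against IR_WT (vertical axis) under every way of processing tried. Diamonds are the values as reported, triangles leave out 1 library, circles are other settings, and red symbols have an adjusted p under 0.05. Spp1 is red 4 times, Ch25h 2 times and Lgals3 and Cd44 once each, the lowest triangle of Clec7a, at 0.98, leaves out knockout replicate 3, and of the 8 genes Fabp5 alone falls below 0.

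Knockout and sham cortex differed in injury and genotype at once, and this comparison shares its sham_WT libraries with the first and its knockout libraries with the second. Its member counts are likewise a description. The log2 fold change was 5.94 ± 0.37 (SE) for Spp1, 5.60 ± 0.36 for Ch25h, 5.38 ± 0.77 for Clec7a and 4.74 ± 0.63 for Cst7. It was 3.22 ± 0.28 for Lgals3, 2.76 ± 0.40 for Gpnmb, 1.71 ± 0.36 for Cd44 and 0.02 ± 0.11 for Fabp5. Of the 8 genes 7 passed, all higher, beside 11.8% of all genes called higher and 22.5% in either direction, and the same 7 did not overlap, beside 21.6% of all genes that were higher without overlap. When the library set entered the model 6 of 8 passed, without Gpnmb, beside 3.57% called higher and 6.21% in either direction. Cd44 thus passed against sham_WT in the knockout (edgeR's quasi-likelihood test) and not in IR_WT. Of the lists, 12 of the 20 other phagocyte genes were called higher against sham_WT and 2 lower. So were, as higher, 7 of 10 cathepsins and cystatins, 7 of 7 galectins tested, 4 of 4 proteases tested and 4 of 5 lectin receptors tested. Smaller shares were called in the other lists. Higher were 2 of 8 integrin subunits, 3 of 8 genes downstream of Dectin-1 and 3 of 8 hyaluronan genes. In the rest, 1 of 4 other fatty acid binding proteins, 1 of 3 MiT/TFE genes and 3 of 12 sterol genes were higher. Lower were 1 integrin subunit and 3 sterol genes. Fewer genes were called in each of these smaller-share lists once the library set was in the model. With the library set in the model the counts were 10 higher and 1 lower of the phagocyte genes, 5 cathepsins and cystatins, 2 galectins, 2 proteases and 0 lectin receptors. The 2 results of Cd44 against sham_WT, in the knockout and in IR_WT, are separated by the knockout comparison itself. As its edgeR adjusted p was 0.166, they are not shown to differ.

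By the group means in FPKM all 8 genes were ordered with sham_WT lowest and IR_Matn3_ko highest. Neighbouring groups overlapped throughout for Fabp5, between sham_WT and IR_WT for Cd44, and between IR_WT and IR_Matn3_ko for Gpnmb. Within the groups the members did not move as a block. IR_WT replicate 1 was highest for 5 members and replicate 2 for Gpnmb and Lgals3. In the knockout, replicate 1 was highest for Cst7, Fabp5 and Ch25h, the library labelled IR_Matn3_ko 2 for Spp1 and Gpnmb, and replicate 3 for Lgals3, Clec7a and Cd44.

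Likeness was judged by centred log2 TMM-scaled CPM over the 9 libraries. The genes at the smallest root mean square difference from each member, among 14166 named genes tested, were taken as most like it. For Spp1 they were the scavenger receptor Msr1 (0.464) and the chemokines Ccl2 (0.578) and Ccl12 (0.654), beside a spread of Spp1 itself of 2.53. For Ch25h they were the complement receptor C5ar1 (0.134), Gpr84 (0.207) and Ccl2 (0.274). For Lgals3 they were Slc15a3 (0.226), Ccl6 (0.245) and Hk3 (0.277), and for Cst7 Pla2g4a (0.157), Plek (0.196) and B3gnt3 (0.200).

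For Gpnmb the closest were Bst1 (0.213), Tnf (0.337) and Soat2 (0.340). For Clec7a they were Ccl11 (0.301), Klk9 (0.506) and Ccl6 (0.510), beside a spread of Clec7a itself of 1.57. For Cd44 they were S100a11 (0.286), Msn (0.318) and Nos3 (0.332). For Fabp5, which hardly varied, they were Cops6, Tpm1 and Spryd3, at 0.0422 to 0.0447. These distances describe 9 libraries of 3 groups, and they carry no test.

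Of 20 tested genes of lipid handling and disease-associated phagocytes, 11 rose in IR_WT against sham_WT, 0 fell and 9 did not pass (median log2 fold change 0.86). With the library set in the model 8 were called, without Tyrobp, Ctsd and Lyz2. The 9 that did not pass were Itgax (1.53, edgeR adjusted p = 0.105), Timp2 (0.15), Trem2 (0.14), Igf1 (0.06), Ank (-0.09), Axl (-0.12), Cybb (-0.48), Cd52 (-0.37) and Apoe (-0.45). The inhibitory receptor Lilrb4a rose by 2.85 (edgeR adjusted p = 0.00023), the chemokine Ccl6 by 2.18 (0.000368) and Plin2, which coats lipid droplets, by 2.12 (0.000394). Plin2 stood at 1.15 to 1.48 FPKM in sham_WT, 5.13 to 8.28 FPKM in IR_WT and 15.0 to 16.5 FPKM in the knockout, and so the 3 groups were apart. In the knockout against IR_WT none of the 20 passed, 13 were higher and 1 lower at an unadjusted p under 0.05, and the median was 0.65. The lower one was Apoe, the main lipid carrier of the brain, at a log2 fold change of -0.62. Once the library set was in the model 4 of the 20 passed, all higher: Plin2, Ccl6, Cd63 and Cd68.

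**Figure D4:**
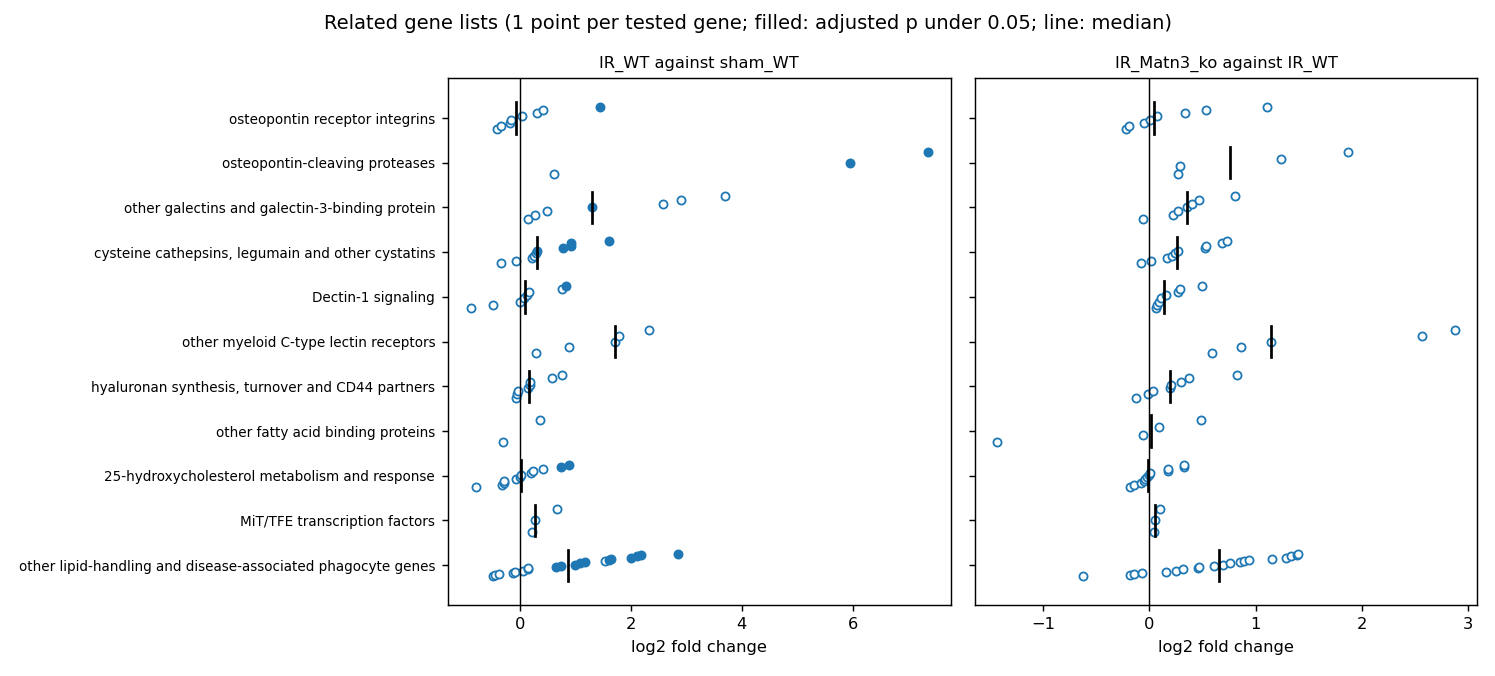
Log2 fold change (horizontal axis) of the tested genes of each related list, 1 point per gene, filled at an adjusted p under 0.05, with the list median as a line. Genes listed at 0 in all sham_WT libraries are not drawn in the left panel, nor the median of their lists. In the left panel 11 of the 20 other phagocyte genes are filled, and no point is filled in IR_Matn3_ko against IR_WT.

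Markers of the cell types that could carry these genes were summed per library. Of 9 homeostatic microglia markers none was apart between the knockout and IR_WT on the higher or the lower side, and their sum was 296 to 306 CPM in sham_WT, 348 to 407 in IR_WT and 322 to 464 in the knockout. Knockout replicate 3, in which Clec7a was highest, had the lowest sum of the knockout libraries. Markers of monocytes and infiltrating macrophages summed to 14.6 to 20.9 CPM in sham_WT, 12.9 to 19.98 in IR_WT and 24.7 to 37.4 in the knockout. Of these markers 4 of 7 were higher in the knockout than in IR_WT without overlap, beside 9.42% of all genes tested. These were Chil3, F10, Ccr2 and Arg1, with Ccr2 at 0.390 to 0.836 FPKM against 0.0394 to 0.272 FPKM, and Arg1 at 1.04 to 4.11 FPKM against 0.0398 to 0.343 FPKM. F10 and Ccr2 were below the expression minimum and were not among the genes tested. The other 3 overlapped: Ms4a4c and Plac8 had log2 fold changes of -1.20 and -0.41, and Ly6c2 was at 0.219 to 0.287 FPKM in the knockout and 0.129 to 0.591 FPKM in IR_WT. The sign for Ms4a4c rests on IR_WT replicate 1, at 4.13 FPKM. Replicates 2 and 3 were at 0.135 and 0.179 FPKM and the knockout at 0.441 to 0.821 FPKM. With the library set in the model its log2 fold change was 2.02, and that of Plac8 -0.67.

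Markers of border-associated macrophages summed to 6.84 to 7.60 CPM in sham_WT, 9.76 to 15.5 in IR_WT and 17.5 to 26.9 in the knockout. Higher in the knockout than in IR_WT without overlap were 2 of 6, Pf4 and F13a1, beside 9.42% of all genes tested. Cbr2 went the other way, at a log2 fold change of -1.28 that did not pass (edgeR adjusted p = 0.273), and Mrc1 was at -0.02. Neutrophil markers summed to 2.06 to 10.7 CPM in the knockout and 1.74 to 5.18 in IR_WT, and Ly6g, which defines mouse neutrophils, was at 0 in all libraries except knockout replicate 1. Astrocyte markers summed to 1328 to 1471 CPM in sham_WT, 1709 to 2069 in IR_WT and 1090 to 1947 in the knockout, and neuron markers to 7443 to 7588, 6093 to 7240 and 5015 to 6306 CPM. Of the 6 astrocyte markers only Gfap was higher in IR_WT than in sham_WT without overlap, at a log2 fold change of 3.38. In the knockout, 2 of 6 astrocyte markers (Aqp4 and Gja1) and 2 of 6 neuron markers were lower than in IR_WT without overlap. None was higher without overlap, and none passed. The share of all genes lower without overlap was not counted. Endothelial markers (125 to 158, 149 to 189.9 and 156 to 219 CPM), fibroblast markers (60.1 to 142, 75.0 to 139 and 100.4 to 117 CPM) and cartilage markers (36.2 to 289, 23.7 to 267 and 20.8 to 29.2 CPM) overlapped between IR_WT and the knockout. The part of these cell types in the knockout differences of the 8 genes was not tested. Bone and osteoclast markers summed to 24.6 to 27.7 CPM in sham_WT, 21.4 to 22.4 in IR_WT and 19.4 to 23.1 in the knockout.

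**Figure D5:**
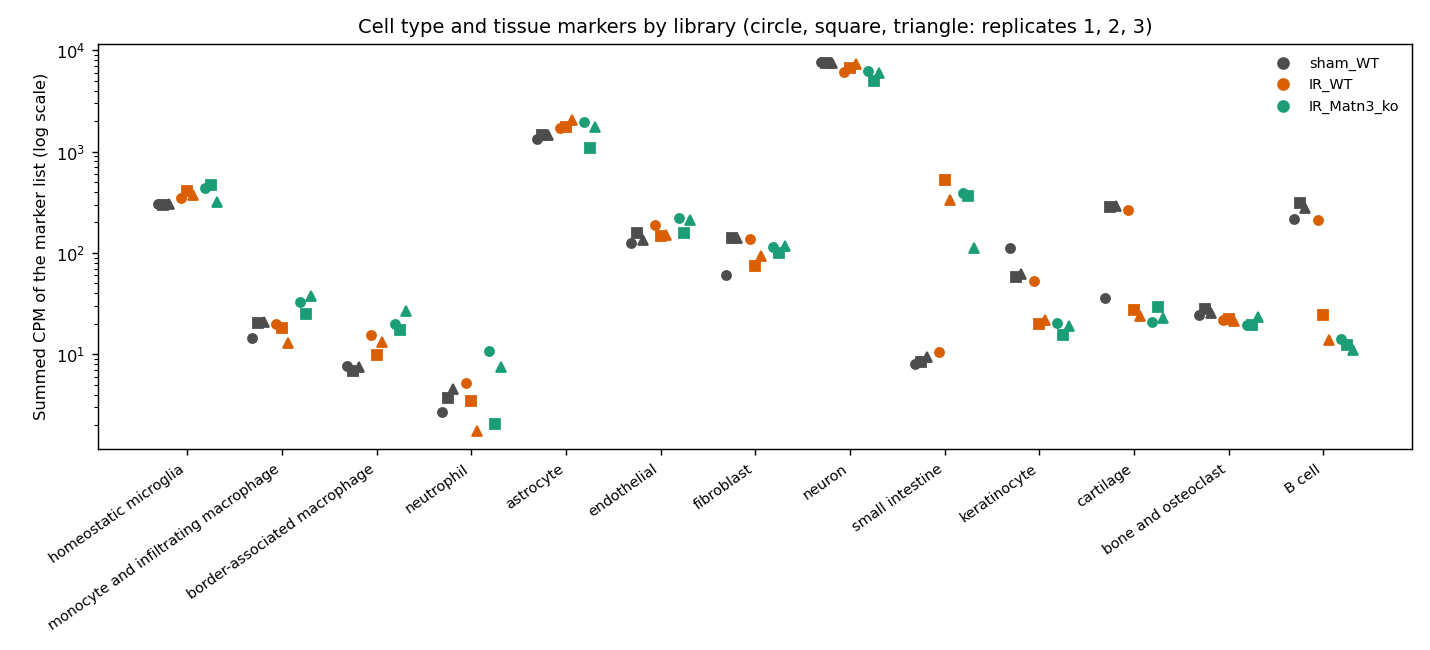
Summed CPM of each marker list (vertical axis, log scale) in the 9 libraries, coloured by group, with a symbol per replicate. The monocyte and border-associated macrophage sums of the 3 IR_Matn3_ko libraries lie above those of IR_WT, while small intestine, keratinocyte and B cell markers place IR_WT replicate 1 with sham_WT and IR_WT replicates 2 and 3 with the knockout.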

How the data were processed

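Poly(A)-selected RNA of 9 cortex samples was sequenced as paired reads from strand-marked libraries with molecular identifiers, per the labels' protocols. The authors deposited a table with raw counts, whole numbers that are not normalized, and FPKM values (per gene length and mapped fragments) for each library, per the file headers. Tools listed without a role, per the submitters' processing notes, were HISAT2 2.0.4, StringTie 1.3.4d, cutadapt 1.9, edgeR, DESeq2 and UMI-tools. The sources used here do not say whether molecules or reads were counted, or whether strand was used. GRCh38, the build in those notes, is human, while the identifiers are mouse. The coordinates of the 8 genes equal those of the mouse annotation GENCODE M21, and are printed as GRCm38.

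Groups and replicate numbers came from the sample titles. Genes with at least 0.5 FPKM in 3 libraries (17247) were tested with edgeR 4.0.16 (glmQLFit, glmQLFTest, TMM factors 0.948 to 1.07, a mean per group, 9 libraries in 1 fit, 6 residual degrees of freedom, Benjamini-Hochberg adjustment, threshold 0.05). The SE was computed from the test, and the 95% interval from its degrees of freedom. Total counts per library set the precision, and limits from a count of 0 (3 counts) cover counting error only. Alternatives used DESeq2 1.42.0 and limma 3.58.1 on log2(FPKM + 1) or log2(FPKM + 0.1), other scalings and filters, library sets, a replicate block and single libraries left out. A term for library sets split at 50 summed CPM of small intestine markers, and a fit within the second set, were chosen after seeing the data. On simulated data of 17247 genes the knockout comparison called 52 of 100 genes set to differ 2-fold, 88 of 100 set to differ 4-fold and 13 unchanged genes. Apart from the changed genes, the simulated libraries shared a common mean per gene and held no library sets. These shares may therefore not hold for the real comparison. The mice are separate per the labels, and the difference between any 2 replicates exceeded sampling noise.

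The 8 members and all gene lists were chosen with earlier results of these data known. From each list the genes named were up to 3 past the threshold with the largest change in each comparison, or, where no gene passed, the 2 of highest FPKM. Ezr, Lgals4, the marker genes, the lectin receptors set beside Clec7a and the phagocyte genes that did not pass, Apoe among them, fall outside this rule. They were chosen with their values in view. Genes named only for a call gained or lost with the library set fall outside it too. Some genes that passed in the knockout against sham_WT were not named, among them Itgb1, Itgav, Hyal1 and Hyal2. Likeness was the root mean square difference of centred log2(TMM-scaled CPM + 0.5). Start-site windows are from RefSeq (GRCm38.p6), and motifs were searched on both strands.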

Additional observations from a re-analysis of the deposited data

How the results depend on the processing

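Over the 8 genes and all settings tried, the knockout difference from IR_WT kept its direction and its side of the threshold in 148 cases, passed it in 8 more and changed sign in 4, all of them Fabp5. For IR_WT against sham_WT the numbers were 135 unchanged, 11 no longer past the threshold and 6 with a changed sign, and for the knockout against sham_WT 148, 1 and 3. The threshold was passed in the knockout comparison by Spp1, Lgals3, Cd44 and Ch25h in DESeq2 (4 of 8 members, 669 genes), by Ch25h in limma on log2(FPKM + 1) (1 member, 38 genes), and by Spp1 with the library set term (1 member, 34 genes), in the second set alone (1 member, 14 genes) and without IR_WT replicate 1 (37 genes). The fits that called Spp1 alone all set the knockout against IR_WT replicates 2 and 3. Limma on log2(FPKM + 0.1) called 15 genes and no member. With single libraries left out 0 to 61 genes and 0 to 1 members passed, the 61 without the library labelled IR_Matn3_ko 2.

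For IR_WT against sham_WT the 701 genes became 1681 in DESeq2, 418 with no filter, 410 with the replicate block, 407 with the library set term and 242 to 996 with single libraries left out. Members called stayed between 4 and 6, with Gpnmb and Clec7a the ones lost. The lowest count was without sham_WT replicate 1. For the knockout against sham_WT the 3887 genes became 1071 with the library set term and 2139 to 4182 with single libraries left out, and members called stayed between 6 and 7. The share of higher calls depended on scaling: with no scaling factors 591 of 746 genes were higher in IR_WT against sham_WT (438 of 701 as reported) and 3508 of 4666 in the knockout against sham_WT (2037 of 3887 as reported), where the median of all genes shifted by 0.08 and 0.14. By limma 445 of 588 and 3159 of 4404 were higher with a pseudocount of 1.

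Fabp5 changed sign in IR_WT against sham_WT with no scaling factors (0.045) and in limma with pseudocounts of 1 and 0.1 (0.056 and 0.059), and ranged from -0.13 to 0.056 with single libraries left out. In the knockout against IR_WT it was -0.039 with the library set term, -0.037 in the second set and -0.036 to 0.15 with single libraries left out, and against sham_WT -0.25 with the library set term and -0.064 to 0.058 with single libraries left out. Cd44 in IR_WT against sham_WT ranged from -0.086 to 0.64 with single libraries left out. The cause of these changes was not tested.

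Replicate numbers did not pair the mice: the correlations of same-numbered deviations were -0.221 to 0.162. With the replicate block 0 genes and 0 members passed in the knockout against IR_WT, 410 genes and 5 members in IR_WT against sham_WT, where Clec7a had an adjusted p of 0.0790 in edgeR, and 3200 genes and 7 members in the knockout against sham_WT. The planned limit of 10 CPM for the library sets left sham_WT alone in the first set and could not be fitted. Members with few counts in sham_WT, Cst7, Clec7a and Ch25h, are limited by depth in the size of their change against it.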
